A study of Mus musculus with 8 samples.

Results

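The 40 genes described here run the cell cycle and copy the DNA. They were taken as a fixed list of symbols, chosen with earlier results of these data known. All 40 were present among the 23284 gene rows of the deposited table. For description they were divided by role into 9 genes of the G1/S step, 13 of DNA replication and 18 of mitosis. Their RNA was sequenced in 8 libraries from mouse iPSCs (induced pluripotent stem cells), made by reprogramming embryonic fibroblasts and kept on feeder cells. Values are FPKM, fragments scaled to transcript length and to library size, so levels can be set side by side between genes.

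Passage from G1 into S phase is driven by D-type cyclins with Cdk4 and by E-type cyclins with Cdk2, which release E2F factors to transcribe the replication genes. The Mcm helicase is loaded at origins before S phase begins. In S phase the DNA is copied, and mitosis follows under Cdk1 with cyclins A and B, the Aurora and Polo kinases and the spindle checkpoint. Mouse pluripotent cells are known for a short G1 phase, high cyclin E and low D-type cyclins. Rapidly dividing cells hold high levels of many of these transcripts.

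There were 2 libraries of miR-203 knock-in iPSCs (ColA1_miR203 (KI/KI); Rosa26rtTA (KI/KI)) that received doxycycline (dox) over 5 days followed by 2 weeks without it, from clones 1 and 2. Another 2 libraries came from vehicle-treated knock-in iPSCs, again clones 1 and 2. The remaining 4 libraries came from wild-type iPSCs (both loci +/+) transfected with siRNA against Dnmt3a, against Dnmt3b, against both (the double siRNA) or with a control siRNA (siControl), 1 library each, collected 1 week later. Dox acts on the Rosa26rtTA transactivator and so turns on the ColA1_miR203 transgene, which makes miR-203, a microRNA of differentiating epithelia. The labels do not say whether the wild-type line is 1 clone, nor that equal clone numbers mean the same clone. The siRNA groups have no replicate check, and p-values between dox and vehicle measure only the spread among these 4 libraries.

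Fragment totals are unknown, so values carry no counting interval. Each library held 11620 to 12076 genes at 1 FPKM or above. Dnmt3a, a target of the siRNA, was at 59.8 FPKM with siDnmt3a, 77.6 FPKM with siDnmt3b and 69.5 FPKM with the double siRNA, against 75.1 FPKM in siControl. Dnmt3b, the other target, was at 135 FPKM with siDnmt3a, 128 FPKM with siDnmt3b and 135 FPKM with the double siRNA, against 146 FPKM in siControl. Among the wild-type libraries each target was lowest under its own single siRNA. In the knock-in line Dnmt3a was at 7.55 and 7.64 FPKM in dox, against 8.85 and 9.55 FPKM in vehicle, and Dnmt3b at 21.5 and 20.8 FPKM in dox, against 68.8 and 55.1 FPKM in vehicle. Pluripotency markers were high in every library, with Pou5f1 (Oct4) between 855 and 1223 FPKM.

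The mature miR-203-3p, from RefSeq on GRCm38.p6, chr12:112130927-112130948 (plus strand), is shown because its seed decides which transcripts it can pair with. Capitals mark the seed, bases 2 to 8.
miR-203-3p: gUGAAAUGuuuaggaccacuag
The match to this seed, CATTTCA, occurred in the annotated 3' UTR of 2 of the 40 genes, or 5.0%. This compares with 14.99% of the 10501 tested genes with an annotated coding transcript. The median 3' UTR length was 734 bases in the 40 genes and 936 bases in the 10501. The part of this length in the shares was not tested. A match lay in Ccnd1 (cyclin D1) and another in Cdk1, and both are printed with the seed match in capitals. On GRCm38 the match of Ccnd1 lies at chr7:144931685-144931691 and that of Cdk1 at chr10:69336322-69336328, both on the minus strand.
Ccnd1 site: aaccattcCATTTCAaagcactt
Cdk1 site: taacgtggCATTTCAtaactgca
A match is a description of the sequence and not evidence of pairing in these cells.

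In the dox libraries the cell cycle genes were mostly lower than in the vehicle libraries, by small amounts. Cyclins E1 and E2, the phosphatase gene Cdc25a, the origin loader Cdc6 and the mitotic kinase gene Aurka fell and did so again when any 1 of the 4 libraries was left out. In each such fit 1 group is a single library, which is assumed to vary like the other group. Cyclin D2 was the only gene of the 40 that rose. Differences are given on the log2(FPKM + 1) scale and were tested with limma over 11927 genes, with adjusted p under 0.05 as the threshold.

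Of the 40 genes, 19 fell, 1 rose and 20 did not pass. Over all genes tested, 14.8% fell and 17.1% rose. The median difference of the 40 genes was -0.25 (log2), against -0.01 for all genes tested. The number that fell was 19 without dox clone 1, where 16.9% of all genes fell, and 9 without dox clone 2, where 8.02% did. It was 5 without vehicle clone 1, where 4.42% of all genes fell, and 11 without vehicle clone 2, where 8.59% did. With the clone number as a block, 29 fell and 3 rose, where 26.7% of all genes fell and 25.6% rose. Both dox libraries lay below both vehicle libraries for 33 of the 40 genes, a pattern found in 37.1% of all genes tested. They lay above for 3 genes, against 35.1% of all genes tested.

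**Figure D1:**
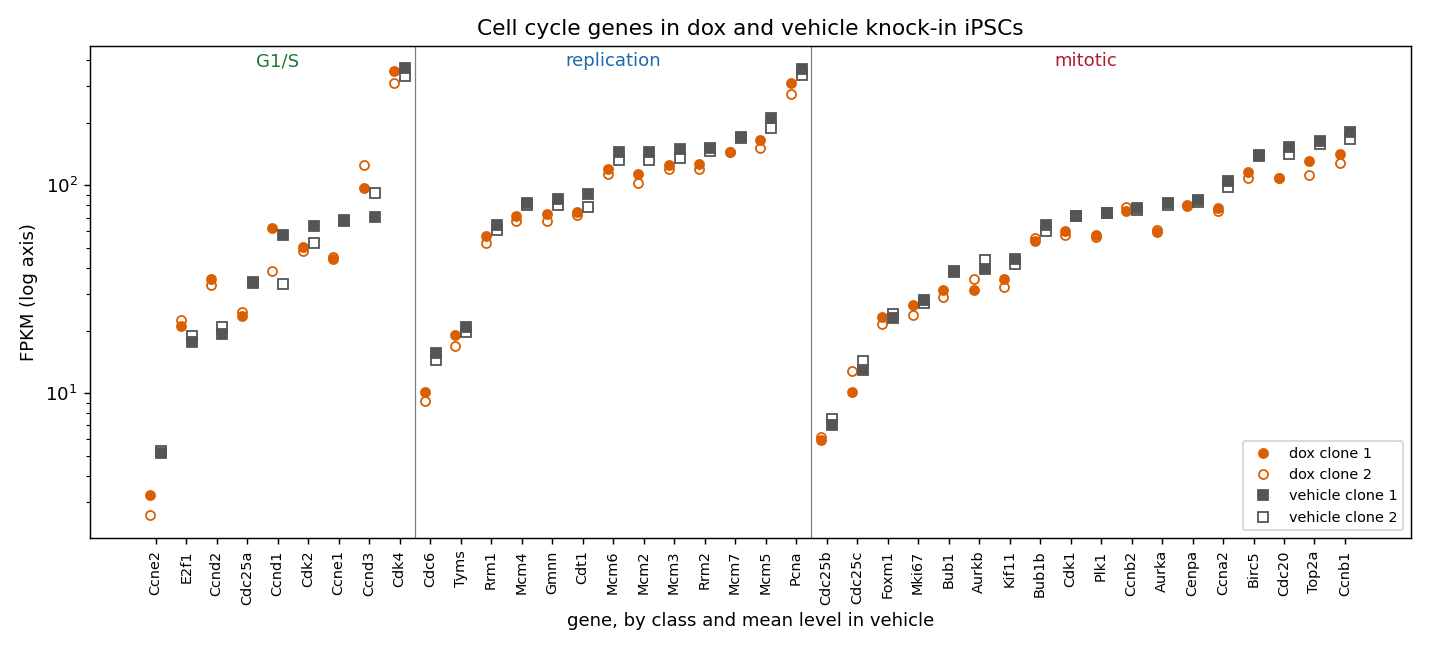
FPKM (log axis) of the 40 cell cycle genes in the dox libraries (orange circles) and vehicle libraries (grey squares) of clone 1 (filled) and clone 2 (open). Most orange circles sit just below the grey squares, with Ccnd2, Ccnd3 and E2f1 above them.

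**Figure D2:**
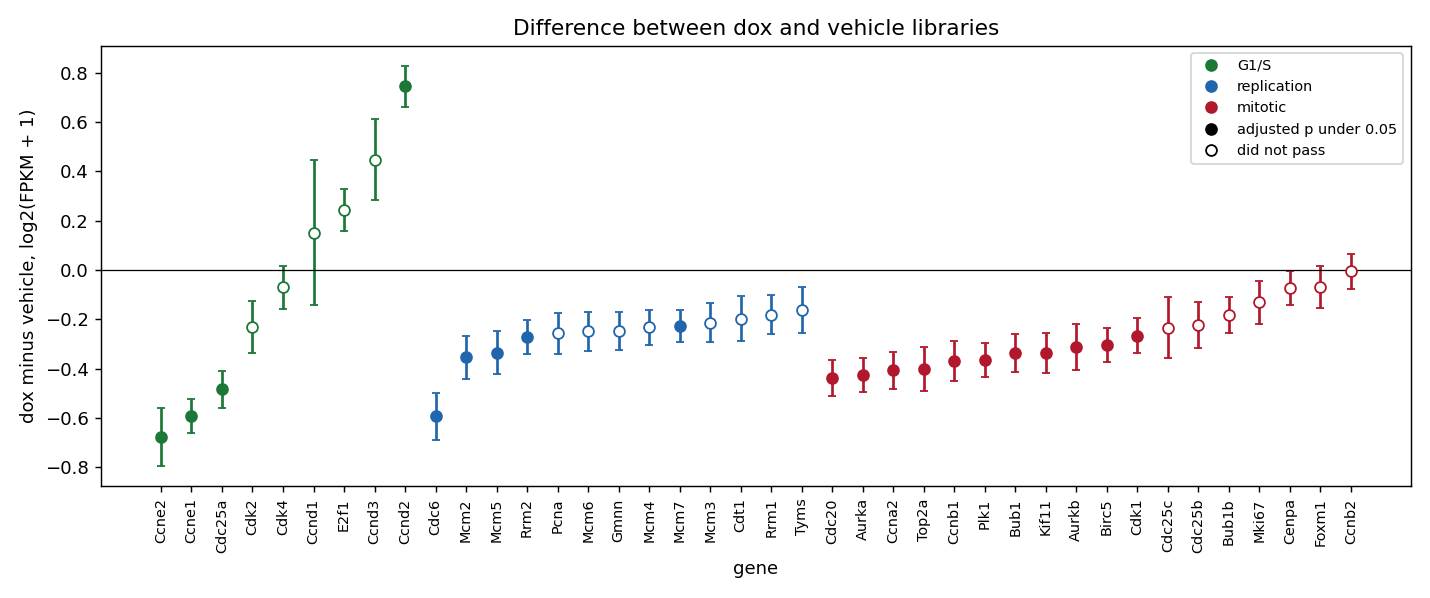
Difference between dox and vehicle on the log2(FPKM + 1) scale for each gene, with its standard error from limma (n = 2 libraries per group). Filled points passed an adjusted p of 0.05. The replication and mitotic genes all lie below 0, while the G1/S genes run from -0.68 to 0.74.

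The G1/S genes were divided. Of the 9, 3 fell, 1 rose and 5 did not pass, with a median difference of -0.07 (log2). Over all genes tested, 14.8% fell and 17.1% rose. Ccne1, cyclin E1 on chromosome 7 from 38097984 to 38107534 (minus strand), was at 44.3 and 45.0 FPKM in dox clones 1 and 2, against 67.3 and 68.4 FPKM in vehicle clones 1 and 2. The clones were nearly equal within each group and the groups did not overlap. Ccne1 fell by 0.59 (log2, SE 0.0699, limma adjusted p = 0.00232). Ccne2, cyclin E2, was at 3.23 and 2.59 FPKM in dox clones 1 and 2, against 5.19 and 5.26 FPKM in vehicle. It fell by 0.68 (log2, SE 0.117, limma adjusted p = 0.00891), and its FPKM was far below that of Ccne1 in all 4 libraries. Cdc25a, a phosphatase that activates Cdk2, was at 23.5 and 24.6 FPKM in dox, against 34.1 and 33.9 FPKM in vehicle. Again the groups did not overlap, and Cdc25a fell by 0.48 (log2, SE 0.0758, limma adjusted p = 0.00620).

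Cyclin D2 moved the other way. Ccnd2, on chromosome 6 from 127125162 to 127152193 (minus strand), was at 35.4 and 33.3 FPKM in dox clones 1 and 2, against 19.3 and 20.9 FPKM in vehicle clones 1 and 2. Both dox values were higher than both vehicle values, and Ccnd2 rose by 0.74 (log2, SE 0.0833, limma adjusted p = 0.00193). With 1 of the 4 libraries left out its highest limma adjusted p was 0.0103, the lone library again being assumed to vary like the other group.

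Cyclins D1 and D3 also differed between the clones. Ccnd1 was at 62.6 and 38.5 FPKM in dox clones 1 and 2, against 57.9 and 33.7 FPKM in vehicle clones 1 and 2. Clone 1 was thus higher than clone 2 in both groups, by 0.69 in dox and 0.77 in vehicle (log2), and the groups overlapped. The difference of Ccnd1 between dox and vehicle, 0.15 (log2), had an SE of 0.294 and did not pass (limma adjusted p = 0.716). It was -0.193 without dox clone 1 and -0.232 without vehicle clone 2. Ccnd3 was at 96.6 and 125 FPKM in dox clones 1 and 2, against 70.1 and 92.3 FPKM in vehicle clones 1 and 2. Here clone 2 was the higher one in both groups, and each clone was higher with dox. The difference of 0.45 (log2) did not pass (SE 0.164, limma adjusted p = 0.0802), but with the clone as a block Ccnd3 did (limma adjusted p = 1.03e-04).

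The catalytic partners and E2f1 did not pass. Cdk4, the kinase of D-type cyclins, was at 356 and 312 FPKM in dox, against 366 and 335 FPKM in vehicle, and its groups overlapped (difference -0.07, limma adjusted p = 0.563; 0.024 without dox clone 2). Cdk2, the kinase of cyclin E, was at 50.6 and 48.1 FPKM in dox, against 64.1 and 52.6 FPKM in vehicle. Its difference of -0.23 (log2) passed only with the block (limma adjusted p = 0.140 without it and 0.0161 with it). E2f1, an activating transcription factor of the G1/S step, was at 21.2 and 22.6 FPKM in dox, against 17.7 and 18.9 FPKM in vehicle. Its groups did not overlap, and its difference of 0.24 (log2) likewise passed only with the block (limma adjusted p = 0.0694 without it and 0.0140 with it).

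**Figure D3:**
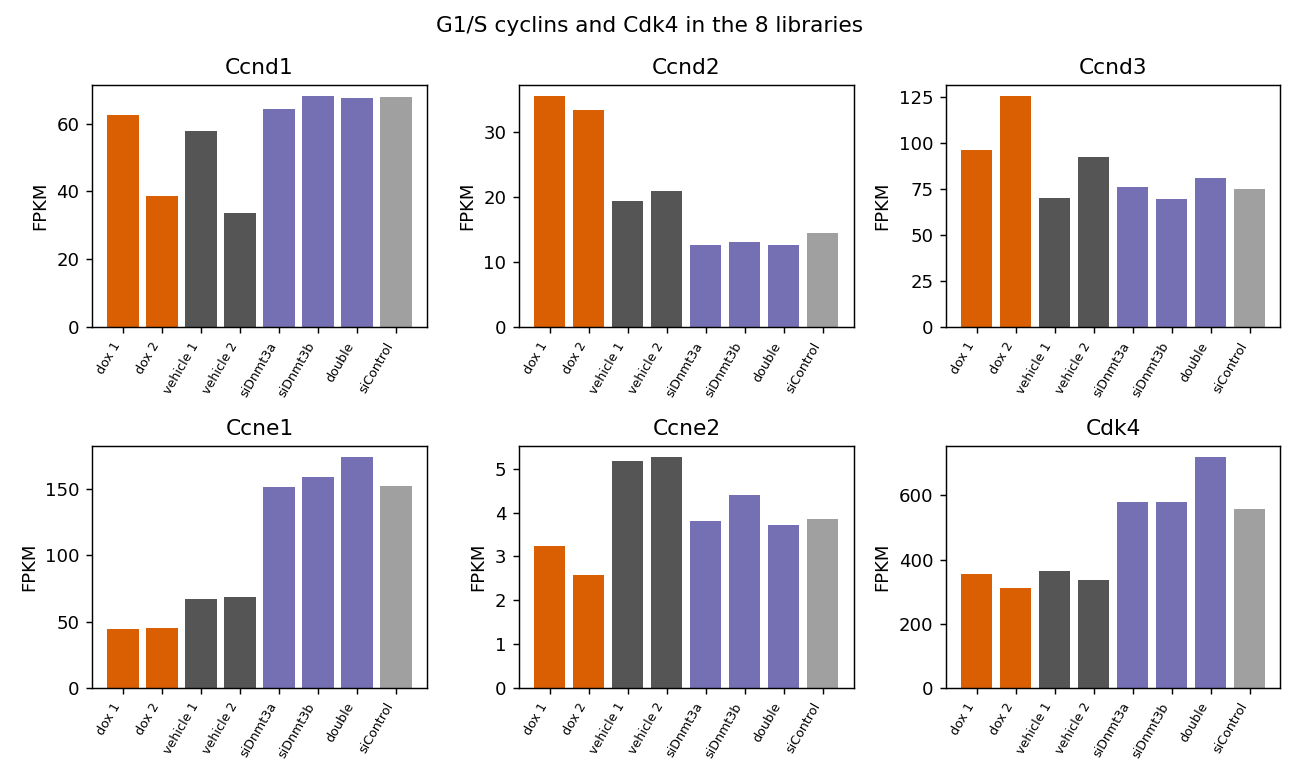
FPKM of the D-type and E-type cyclins and Cdk4 in the 8 libraries, 1 bar per library, with dox (orange), vehicle (dark grey), the siRNA libraries (purple) and siControl (light grey). Ccnd2 is highest with dox, Ccnd1 splits by clone, and Ccne1 and Cdk4 are higher in every wild-type library than in any knock-in library.

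All 13 replication genes were lower in both dox libraries than in both vehicle libraries, a pattern found in 37.1% of all genes tested. Of these, 5 fell, where 14.8% of all genes did, and 8 did not pass, with a median difference of -0.25 (log2). With the clone as a block, 12 of the 13 fell, where 26.7% of all genes did, and Tyms, thymidylate synthase, was the exception (limma adjusted p = 0.0844). Without dox clone 2 or vehicle clone 1, only Cdc6 fell, and without vehicle clone 2 the number was 3. In the fits where only Cdc6 fell, 1 of 13 was near the share over all genes. Centring each library on its median gave 9 that fell, where 2084 of all 11927 genes tested did.

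Cdc6, which loads the helicase at origins, lies on chromosome 11 from 98907801 to 98923940 (plus strand). It was at 10.2 and 9.14 FPKM in dox clones 1 and 2, against 15.7 and 14.4 FPKM in vehicle clones 1 and 2. The dox values were about 36% lower on average (-35.9%), and Cdc6 fell by 0.59 (log2, SE 0.0953, limma adjusted p = 0.00685). No other replication gene differed by as much. Cdt1, its partner in loading, was at 74.4 and 72.2 FPKM in dox, against 90.5 and 78.3 FPKM in vehicle, which did not pass (-0.20, limma adjusted p = 0.135). Gmnn, geminin, the inhibitor of Cdt1, was at 72.6 and 67.7 FPKM in dox, against 86.4 and 80.6 FPKM in vehicle (-0.25, limma adjusted p = 0.0527).

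The 6 subunits of the Mcm2-7 helicase were lower by similar amounts. Their differences ran from -0.35 for Mcm2 to -0.21 for Mcm3 (log2). Mcm5, the most abundant of the 6 in the vehicle libraries, was at 165 and 151 FPKM in dox, against 211 and 189 FPKM in vehicle. Mcm4, the least abundant, was at 71.2 and 67.1 FPKM in dox, against 82.1 and 80.7 FPKM in vehicle. Mcm2 was at 114 and 103 FPKM in dox, against 145 and 132 FPKM in vehicle, and Mcm7 was at 145 FPKM in both dox libraries, against 171 and 168 FPKM in vehicle. Mcm2, Mcm5 and Mcm7 fell (limma adjusted p = 0.0255, 0.0296 and 0.0406). Mcm3, at 125 and 119.6 FPKM in dox against 149 and 135 FPKM in vehicle, did not pass (limma adjusted p = 0.0802). Mcm6, at 119.8 and 113 FPKM in dox against 145 and 132 FPKM in vehicle, and Mcm4 did not pass either, by a small margin (limma adjusted p = 0.0522 and 0.0504).

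Among the genes for the clamp and for nucleotides, Pcna, the sliding clamp of DNA polymerase, was the most abundant replication gene. It was at 310.4 and 276 FPKM in dox, against 362 and 338 FPKM in vehicle (-0.26, limma adjusted p = 0.0578). Rrm2, the regulated subunit of ribonucleotide reductase, fell, at 126 and 120.1 FPKM in dox against 151 and 147 FPKM in vehicle (-0.27, limma adjusted p = 0.0285). Rrm1, the large subunit, was at 57.3 and 53.0 FPKM in dox, against 64.4 and 61.0 FPKM in vehicle (-0.18, limma adjusted p = 0.122). Tyms was at 19.1 and 16.8 FPKM in dox, against 20.7 and 19.6 FPKM in vehicle (-0.16, limma adjusted p = 0.225).

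All 18 mitotic genes had a lower mean on the log2 scale in dox. Both dox libraries lay below both vehicle libraries for 16 of them, against 37.1% of all genes tested. Of the 18, 11 fell, where 14.8% of all genes did, and 7 did not pass, with a median difference of -0.31 (log2). The number that fell was 5 without dox clone 2, 1 without vehicle clone 1 and 5 without vehicle clone 2, where 8.02%, 4.42% and 8.59% of all genes fell. The 1 of 18 was thus near the share over all genes. With the clone as a block 13 fell, where 26.7% of all genes did, with Bub1b and Cdc25c added (limma adjusted p = 0.0285 and 0.0334).

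The kinases and the anaphase activator moved together. Aurka, the centrosomal Aurora kinase, lies on chromosome 2 from 172356190 to 172370535 (minus strand). It was at 59.3 and 61.1 FPKM in dox clones 1 and 2, against 81.9 and 80.7 FPKM in vehicle, and fell by 0.43 (log2, SE 0.0691, limma adjusted p = 0.00698). Cdc20, an activator of the anaphase-promoting complex, was at 108 and 109 FPKM in dox, against 154 and 141 FPKM in vehicle, and fell by 0.44 (log2, SE 0.0734, limma adjusted p = 0.00789). Without vehicle clone 1 Cdc20 did not pass (limma adjusted p = 0.0539). Plk1, the Polo kinase, was at 58.0 and 56.3 FPKM in dox, against 74.0 and 73.7 FPKM in vehicle (-0.37, limma adjusted p = 0.0120). Aurkb, the kinase of the chromosomal passenger complex, was at 31.5 and 35.3 FPKM in dox, against 39.5 and 43.9 FPKM in vehicle (-0.31, limma adjusted p = 0.0470). Birc5, survivin of the same complex, was at 116 and 109 FPKM in dox, against 140.0 and 138 FPKM in vehicle (-0.30, limma adjusted p = 0.0215). In each of these genes every dox value was below every vehicle value.

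Cyclins A2 and B1 fell and cyclin B2 did not. Ccna2 was at 77.8 and 74.9 FPKM in dox, against 105 and 97.9 FPKM in vehicle (-0.41, limma adjusted p = 0.0106). Ccnb1 was at 141 and 129 FPKM in dox, against 181 and 167 FPKM in vehicle (-0.37, limma adjusted p = 0.0190). Ccnb2 was at 75.02 and 78.8 FPKM in dox, against 77.8 and 76.5 FPKM in vehicle, and these groups overlapped (-0.01, limma adjusted p = 0.960), with the sign turning under 3 of the alternatives. Cdk1, the kinase these cyclins bind, was at 60.4 and 57.9 FPKM in dox, against 71.1 and 71.5 FPKM in vehicle (-0.27, limma adjusted p = 0.0316). The difference between Ccnb1 and Ccnb2 was not tested.

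Spindle and chromosome genes followed the same direction. Top2a, the topoisomerase that untangles sister chromatids, was at 130.5 and 113 FPKM in dox, against 163 and 158 FPKM in vehicle (-0.40, limma adjusted p = 0.0187). The checkpoint kinase gene Bub1 was at 31.5 and 29.2 FPKM in dox, against 38.9 and 38.2 FPKM in vehicle (-0.34, limma adjusted p = 0.0226). Kif11, the motor that separates spindle poles, was at 35.3 and 32.6 FPKM in dox, against 44.3 and 41.9 FPKM in vehicle (-0.34, limma adjusted p = 0.0246). All 3 fell. Bub1b, the checkpoint protein BubR1, was at 54.3 and 55.5 FPKM in dox, against 64.4 and 60.6 FPKM in vehicle, and did not pass (-0.18, limma adjusted p = 0.1001).

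The remaining mitotic genes did not pass. Mki67, which encodes the proliferation antigen Ki-67, was at 26.7 and 23.8 FPKM in dox, against 28.1 and 27.3 FPKM in vehicle (-0.13, limma adjusted p = 0.286). Foxm1, the transcription factor of many mitotic genes, was at 23.3 and 21.5 FPKM in dox, against 22.9 and 24.2 FPKM in vehicle (-0.07, limma adjusted p = 0.550). Cenpa, the centromeric histone, was at 80.6 and 79.4 FPKM in dox, against 85.2 and 83.2 FPKM in vehicle (-0.07, limma adjusted p = 0.439). The 2 mitotic Cdc25 phosphatase genes were low, Cdc25b at 5.99 and 6.17 FPKM in dox against 6.999 and 7.52 FPKM in vehicle, and Cdc25c at 10.2 and 12.8 FPKM in dox against 13.0 and 14.3 FPKM in vehicle. Their differences were -0.22 and -0.23 (log2, limma adjusted p = 0.112 and 0.186).

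Other cell cycle genes, from 5 lists outside the 40, had a median difference of -0.255 (log2). Of the 146 tested, 56 fell, 4 rose and 86 did not pass. Among all genes tested 14.8% fell and 17.1% rose, or 26.7% and 25.6% with the clone as a block. With the clone as a block 94 fell, 5 rose and 47 did not pass, among them 51 further mitotic genes that fell and 1 that rose, 30 further replication genes that fell, 4 checkpoint genes and 7 E2F, DREAM and MuvB factors that fell. The 66 further mitotic genes had 33 that fell and none that rose, led by Kif20b, a spindle motor (-0.60), Cenpk, of the centromere (-0.59), and Ect2, needed for cytokinesis (-0.59). Of 46 further replication genes 16 fell and none rose, led by the origin subunit Orc2 (-0.53), the helicase component Gins3 (-0.50) and Mcm10 (-0.45). Among 10 checkpoint kinases and partners 3 fell, Chek1 (-0.45), Atm (-0.41) and Wee1 (-0.31), and none rose. Of 15 other E2F, DREAM and MuvB factors 3 fell, a share near that over all genes, and none rose. The 3 were E2f8 (-0.68), Lin54 (-0.35) and E2f4 (-0.28). These values are log2 differences with a limma adjusted p between 0.00353 and 0.0436. Kif20b, Cenpk, Ect2, Orc2 and Gins3 passed with any 1 library left out, Mcm10 and Chek1 in 3 of 4 such fits, E2f8 in 2, and Atm, Wee1, Lin54 and E2f4 in 1.

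Several inhibitors of cyclin-dependent kinases were higher with dox. Of 9 inhibitor and pocket protein genes tested, 4 rose and 1 fell, where 17.1% of all genes rose and 14.8% fell. Cdkn2b, the Cdk4 inhibitor p15, was at 16.1 and 14.6 FPKM in dox, against 7.46 and 9.09 FPKM in vehicle (0.82, limma adjusted p = 0.00420). Cdkn2a, the locus of p16 and p19Arf in mouse, was at 81.1 and 85.4 FPKM in dox, against 47.8 and 56.1 FPKM in vehicle (0.67, limma adjusted p = 0.00436). Cdkn1a, the inhibitor p21, was at 166 and 197 FPKM in dox, against 132 and 133 FPKM in vehicle (0.45, limma adjusted p = 0.0166). Rbl2, the pocket protein p130, was at 3.07 and 3.70 FPKM in dox, against 2.29 and 2.37 FPKM in vehicle (0.39, limma adjusted p = 0.0457), and was named after its value was seen. Cdkn1c, the imprinted inhibitor p57, fell at low levels, 1.03 and 1.24 FPKM in dox against 2.21 and 1.72 FPKM in vehicle (-0.47, limma adjusted p = 0.0418). With 1 library left out in turn, Cdkn2a and Cdkn2b passed in 4 of 4 fits, Cdkn1a in 3, and Rbl2 and Cdkn1c in 1.

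Markers of other cells moved in the same libraries. For the counts below, 17.1% of all genes tested rose and 14.8% fell. Of 31 tested feeder fibroblast markers 29 rose and 1 fell. The summed FPKM of the 32 on the list was 4509 to 4723 in dox, against 1404 to 1647 in vehicle. Of 10 macrophage markers 4 rose and 6 did not pass. By sign 7 were higher and 3 lower in dox, the lowest at -0.575 (log2). Their sums were 339 to 428 FPKM in dox against 247 to 281 FPKM in vehicle. Of 20 pluripotency markers 6 rose and 4 fell, with a median difference of 0.02 (log2) and sums of 4966 to 5153 FPKM in dox against 4094 to 4545 FPKM in vehicle. No marker on the 3 lists was at 0 in these 4 libraries. The fibroblast gene Timp1 was at 740.4 and 789 FPKM in dox, against 186 and 218 FPKM in vehicle. In bulk libraries a lower share of cycling cells and less of these transcripts per cell cannot be told apart, and the part of the feeder cells in the cell cycle differences was not tested.

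Promoter windows were read for the 40 genes because the replication and mitotic groups each moved together. RefSeq windows on GRCm38.p6, from 250 bases before to 50 after the start, were found for 31 of the 40 genes, in 33 windows. Motifs searched on both strands were the E2F element (TTTCCCGC, TTTGGCGC, TTTGCCGC or TTTCGCGC, with overlapping matches kept), the CHR element of late cell cycle genes (TTTGAA) and the CCAAT box (CCAAT). The E2F element was in 6 of 12 replication windows, 2 of 7 G1/S windows and 1 of 14 mitotic windows, against 2.26% of 32851 windows in the genome. The CHR element was in 10 of 14 mitotic windows, 1 of 12 replication windows and none of 7 G1/S windows, against 17.9% of all windows. All 10 mitotic windows with a CHR also held a CCAAT box, and both occurred together in 6.95% of all windows. These are matches of letters and not measured binding.

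A few windows are printed to show these elements, with motif matches in capitals. Cdc25a and Cdc6 stand for the G1/S and replication genes with an E2F element, Mcm6 for a window with 3 of them, the first 2 overlapping, and Aurka and Cdc20 for mitotic genes with a CHR beside CCAAT boxes. All but Mcm6 fell in dox. The windows follow RefSeq starts, while gene positions given above come from GENCODE. The Cdc6 window lies inside the gene that starts at 98907801, so its E2F match lies after that start. Ccne1, which with Cdc6 had the lowest difference among the genes with a window, holds none of these letters, so its window is in lower case throughout.
Cdc25a promoter, chr9:109875329-109875628 (plus strand): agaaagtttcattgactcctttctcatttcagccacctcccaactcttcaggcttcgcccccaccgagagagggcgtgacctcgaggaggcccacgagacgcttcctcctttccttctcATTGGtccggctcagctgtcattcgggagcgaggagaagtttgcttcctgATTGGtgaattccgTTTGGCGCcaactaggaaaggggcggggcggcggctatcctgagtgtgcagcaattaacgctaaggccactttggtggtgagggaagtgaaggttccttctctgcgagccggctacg
Cdc6 promoter, chr11:98907901-98908200 (plus strand): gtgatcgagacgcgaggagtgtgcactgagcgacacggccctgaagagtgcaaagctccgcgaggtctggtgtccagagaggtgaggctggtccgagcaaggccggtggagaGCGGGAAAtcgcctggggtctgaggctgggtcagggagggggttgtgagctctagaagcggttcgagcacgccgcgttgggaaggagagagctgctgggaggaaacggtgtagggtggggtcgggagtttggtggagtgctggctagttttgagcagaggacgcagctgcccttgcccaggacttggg
Mcm6 promoter, chr1:128359656-128359955 (minus strand): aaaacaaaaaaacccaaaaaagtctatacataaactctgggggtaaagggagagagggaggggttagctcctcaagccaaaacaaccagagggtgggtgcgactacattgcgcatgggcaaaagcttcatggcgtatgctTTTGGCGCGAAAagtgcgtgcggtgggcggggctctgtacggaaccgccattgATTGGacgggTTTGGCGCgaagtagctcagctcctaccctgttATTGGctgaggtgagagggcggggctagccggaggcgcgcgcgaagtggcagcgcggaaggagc
Aurka promoter, chr2:172370521-172370820 (minus strand): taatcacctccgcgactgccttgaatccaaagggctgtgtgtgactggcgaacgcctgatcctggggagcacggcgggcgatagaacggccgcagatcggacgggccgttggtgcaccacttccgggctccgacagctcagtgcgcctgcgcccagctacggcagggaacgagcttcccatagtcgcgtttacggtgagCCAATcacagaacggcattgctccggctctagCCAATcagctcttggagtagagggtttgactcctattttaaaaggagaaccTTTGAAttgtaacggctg
Cdc20 promoter, chr4:118437294-118437593 (minus strand): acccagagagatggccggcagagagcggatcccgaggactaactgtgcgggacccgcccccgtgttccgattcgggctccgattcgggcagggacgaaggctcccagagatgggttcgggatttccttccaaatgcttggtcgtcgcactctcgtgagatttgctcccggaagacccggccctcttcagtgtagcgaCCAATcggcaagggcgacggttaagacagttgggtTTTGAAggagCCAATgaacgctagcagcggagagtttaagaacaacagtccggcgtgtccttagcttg
Ccne1 promoter, chr7:38107441-38107740 (minus strand): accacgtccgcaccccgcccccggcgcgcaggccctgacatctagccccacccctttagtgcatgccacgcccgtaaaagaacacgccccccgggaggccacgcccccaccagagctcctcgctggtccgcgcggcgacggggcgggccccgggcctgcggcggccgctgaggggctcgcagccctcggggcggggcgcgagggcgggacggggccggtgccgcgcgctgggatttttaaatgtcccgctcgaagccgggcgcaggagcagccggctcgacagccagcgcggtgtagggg
The 11 genes with a CHR in their window differed between dox and vehicle by a median of -0.34 (log2), and 7 of them fell. The 20 genes with a window but no CHR differed by a median of -0.24, and 9 fell. For the E2F element the medians were -0.249 in 9 genes with it and -0.265 in 22 without it. No difference between these groups was tested.

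With siRNA against Dnmt3a or Dnmt3b alone, the cell cycle genes were close to siControl, as were most genes. The targets themselves differed little, Dnmt3a by -20.3% with siDnmt3a and Dnmt3b by -12.3% with siDnmt3b. The medians of the 40 differences were -0.002 for siDnmt3a, 0.01 for siDnmt3b and 0.05 for the double siRNA (log2). Over 11716 genes they were -0.004, -0.003 and 0.008. No gene of the 40 differed by 0.32 (log2) or more with either single siRNA. Of the 11716 genes, 1.34% were higher and 2.07% lower by that much with siDnmt3a, and 0.64% and 2.17% with siDnmt3b. For a list of 40, none past this cut is near those shares. Between clones 1 and 2 the 40 genes differed with an SD of 0.16 in dox and 0.16 in vehicle (log2). Against siControl the SD was 0.06 for siDnmt3a, 0.06 for siDnmt3b and 0.19 for the double siRNA. The clone SD in dox and vehicle was 0.29 and 0.321 for the G1/S genes. It was 0.052 and 0.055 for the replication genes and 0.123 and 0.08 for the mitotic genes. The double siRNA SD was 0.156, 0.121 and 0.24 for the G1/S, replication and mitotic genes. For the replication and mitotic genes it was thus above both clone SDs. The 3 siRNA comparisons share the siControl library.

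**Figure D4:**
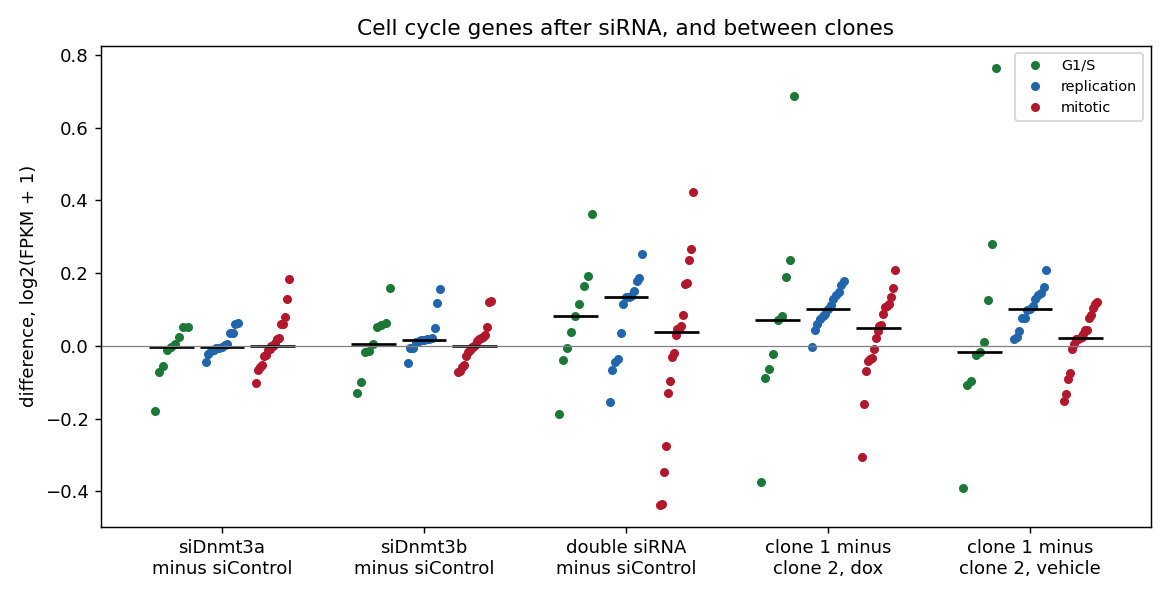
Differences on the log2(FPKM + 1) scale of the 40 genes in each siRNA library against siControl and between clones 1 and 2 within the dox and vehicle groups. Points are genes coloured by class and black lines are class medians. The single siRNA points stay between -0.18 and 0.18 and the double siRNA points spread from -0.44 to 0.42.

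With the double siRNA, 2 genes were higher by 0.32 (log2) or more and 3 lower, against 7.39% and 7.58% of all genes. Taken over all members, neither count was above the share over all genes. The members past this cut are described singly, and no test was run. Cenpa was at 112 FPKM with siDnmt3a, 98.9 FPKM with siDnmt3b and 133 FPKM with the double siRNA, against 98.6 FPKM in siControl. Cdk4 was at 578, 579 and 718 FPKM in these 3 libraries, against 558 FPKM in siControl. Both were highest with the double siRNA. Kif11 was at 34.5, 37.7 and 27.1 FPKM in the siRNA libraries, against 37.1 FPKM in siControl. Bub1 was at 35.0, 38.8 and 26.1 FPKM, against 35.6 FPKM in siControl, and Mki67 at 34.5, 34.3 and 27.9 FPKM, against 35.8 FPKM in siControl. These 3 mitotic genes were lowest with the double siRNA and near siControl with the single ones. Of the 66 further mitotic genes 14 were lower by 0.32 (log2) or more and 2 higher, with a median of -0.068, below that of the mitotic members. Of the 10 checkpoint genes 3 were lower by that much and none higher (median -0.147), and of the 46 further replication genes 2 were lower and 1 higher (median 0.097). Of the 15 E2F, DREAM and MuvB factors none was past it (median 0.012), and of the 9 inhibitor and pocket protein genes 1 was higher (median -0.084).

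Class medians with the double siRNA were 0.08 for the G1/S genes, 0.135 for the replication genes and 0.04 for the mitotic genes (log2). With upper quartile scaling they were 0.035, 0.086 and -0.009, so the sign of the mitotic median turned, and the median of all 40 genes was 0.005. Of the replication genes 9 were higher and 4 lower, the highest being Mcm5, at 233 FPKM with siDnmt3a, 229 FPKM with siDnmt3b and 271 FPKM with both, against 227 FPKM in siControl. Ccne1 was at 152, 159 and 174 FPKM in the siRNA libraries, against 152 FPKM in siControl, and Ccnd2 at 12.7, 13.1 and 12.6 FPKM, against 14.5 FPKM in siControl. Ccnd2 was thus a little lower in all 3 siRNA libraries. The FPKM of all genes summed to 586657 in the double siRNA library and 512645 in siControl. With siDnmt3a the sum was 526330 and with siDnmt3b 520773. Over 11716 genes, 6033 were higher and 5683 lower with the double siRNA, with a median of 0.008 (log2). The part of this difference in sums in the values above was not tested.

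Transcript length and base composition moved with the double siRNA differences. Across the 40 genes the difference correlated with transcript length at Spearman's rho = -0.58 and with GC content at rho = 0.55, and across 10340 genes tested at -0.51 and 0.52. For siDnmt3a the values over the 40 genes were -0.48 and 0.52, and for siDnmt3b -0.01 and -0.485. Between dox and vehicle, length and GC content gave 0.12 and 0.20 over the 40 genes. Across 10501 genes tested they gave -0.03 and 0.27. Points of a comparison share the same libraries, and genes are not independent replicates. Mki67 has the longest annotated transcript of the 40, 10061 bases, and Kif11 has 4819, while Cenpa has 1466 and Cdk4 2053. Bub1, as low as Kif11 with the double siRNA, has 3421 bases. Foxm1 has 4652 bases and differed by only -0.03 (log2). The part of length and composition in these differences was not tested. Summed feeder fibroblast markers were 566 to 575 FPKM in the siRNA libraries, against 734 FPKM in siControl, and 32, 31 and 30 of the 32 markers were lower with siDnmt3a, siDnmt3b and the double siRNA. The fibroblast gene Fap was at 0 in the siDnmt3a library.

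**Figure D5:**
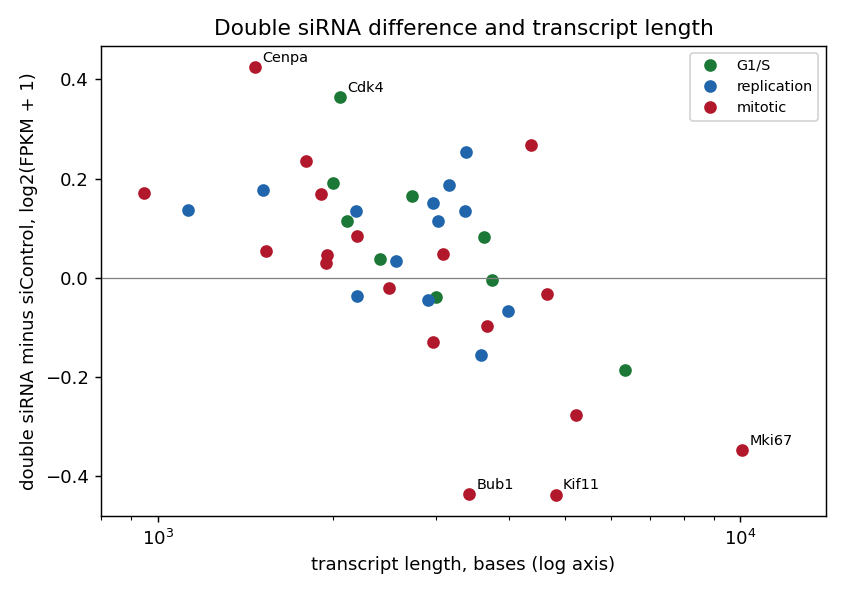
Difference between the double siRNA and siControl libraries (log2(FPKM + 1) scale) against annotated transcript length (log axis) for the 40 genes, coloured by class. Genes that differ by 0.32 or more are named, with Cenpa and Cdk4 on the short side, Mki67 and Kif11 on the long side and Bub1 between them.

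The vehicle-treated knock-in cells were also set beside the wild-type cells. Both vehicle libraries lay below all 4 wild-type libraries for 22 of the 40 genes and above them for 7, against 38.0% and 38.1% of all genes. For the replication genes the counts were 11 below and none above, for the G1/S genes 5 and 3, and for the mitotic genes 6 and 4. Line, transfection and time of collection differ together here and cannot be told apart, and no test was run.

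Ccne1 differed most among the 40 genes between these lines, at 67.3 and 68.4 FPKM in the vehicle libraries against 152 to 174 FPKM in the wild-type libraries, or 0.43 times the wild-type mean. Cdk4 was at 366 and 335 FPKM in vehicle, against 558 to 718 FPKM in wild type (0.58 times). Cdc6 was at 15.7 and 14.4 FPKM in vehicle, against 21.1 to 23.8 FPKM in wild type, and Mcm2 at 145 and 132 FPKM, against 193 to 213 FPKM in wild type. In the other direction, Ccnd2 was at 19.3 and 20.9 FPKM in vehicle, against 12.6 to 14.5 FPKM in wild type (1.52 times), and Cdk2 at 64.1 and 52.6 FPKM, against 39.5 to 42.2 FPKM in wild type (1.43 times). Dox values of Ccne1, Cdc6, Mcm2 and Ccnd2 lay further from the wild-type values than the vehicle values did. Those of Cdk2, 50.6 and 48.1 FPKM, lay nearer. Kif11 in dox, at 35.3 and 32.6 FPKM, lay within its wild-type range of 27.1 to 37.7 FPKM. The 40 genes were not counted in this way. For the mitotic genes Kif11, Birc5, Ccna2 and Top2a, vehicle was above wild type, by 1.26, 1.20, 1.15 and 1.12 times. Summed fibroblast markers were 1404 to 1647 FPKM in vehicle, against 566 to 734 FPKM in the 4 wild-type libraries, and macrophage markers 247 to 281 FPKM, against 139 to 187 FPKM in wild type.

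Among the kinase inhibitors, Cdkn1a was at 132 and 133 FPKM in vehicle, against 34.3 to 40.5 FPKM in wild type, and Cdkn2a at 47.8 and 56.1 FPKM, against 15.5 to 20.6 FPKM in wild type. Cdkn1c was at 2.21 and 1.72 FPKM in vehicle, against 38.2 to 52.6 FPKM in wild type. This was 0.0458 times the wild-type mean, and the gene was singled out here after its values were seen.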

How the data were processed

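Polyadenylated RNA was made into strand-specific (dUTP) libraries and sequenced on a HiSeq2500, per the labels' protocols. The authors deposited FPKM in 1 table of the series. For alignment and quantification, the submitters' processing notes list Cuffnorm, Cufflinks 2.2.1, TopHat2 2.0.10, SAMtools 0.1.19, Bowtie 1.0.0 and FastQC, with mouse build GRCm38 (mm10). How Cuffnorm scaled the libraries, which annotation it used and whether strand was counted are not stated there. Since FPKM are relative, abundant genes that rise lower the rest.

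The test of dox against vehicle used limma 3.58.1 (R 4.3.3, trended eBayes, two-sided) on log2(FPKM + 1) for all genes averaging at least 1 FPKM over the knock-in libraries, with Benjamini-Hochberg adjustment across all of them and a threshold of 0.05. All 40 genes passed the filter on low values. The procedure was also run on simulated data, with changes larger than that of any of the 40 genes and without a clone effect. That run does not show how well changes as small as theirs are called. The siRNA libraries were set against siControl with no test, over genes averaging at least 1 FPKM over the 4 wild-type libraries. Equal clone numbers in the titles were treated as pairs. As a check, the clone 1 minus clone 2 values of the dox group followed those of the vehicle group across genes (r = 0.441). The design without the block was kept as the main one.

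Of the 40 genes, 5 (Ccnb1, Ccnb2, Ccnd3, Pcna and Tyms) have an annotated pseudogene of their name and 19 overlap another annotated gene, so fragments may be shared and these values are less certain. Positions, transcript lengths and 3' UTRs come from GENCODE M21 on GRCm38, using the coding transcript with the longest coding sequence, and promoter and miRNA sequences from RefSeq. Of 250 listed genes, 249 were matched, 3 through an older symbol, and Ticrr was not. The members and lists were chosen with earlier results of these data known. Genes named are the 40 members, the siRNA targets, up to 3 per direction with the largest difference past the threshold from each other cell cycle list, and up to 3 markers per list with the highest mean FPKM. Rbl2 and Fap were named outside this rule, after their values were seen.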

Additional observations from a re-analysis of the deposited data

How the results depend on the processing

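Pseudocounts, filters on low values, scaling between libraries, the limma prior, the replicate block and leaving out each knock-in library were tried. Adding the clone number as a replicate block raised the genes that fell to 29 of the 40, those that rose to 3, the replication genes that fell to 12 and all genes that fell to 3190. It gave 12 further members a call, 10 lower and 2 higher, and took none away. Without a filter 947 genes fell over all genes, with 13 of the 40 and 2 replication genes among them. With a minimum of 5 FPKM 1289 genes rose. Without the trend 1529 of 11927 genes fell, among them 14 of the 40 and 2 replication genes. That count of replication genes was near the share over all genes. With median centring 2084 of 11927 genes fell, among them 23 of the 40 and 9 replication genes. With 1 library left out, the members that fell ranged from 5 to 19 and those that rose from 1 to 2, and over all genes from 527 to 2014 fell and from 1057 to 2130 rose. By class, from 1 to 6 replication and from 1 to 10 mitotic genes fell, while 3 G1/S genes fell each time. Called in all 4 of these fits were Ccnd2, Ccne1, Ccne2, Cdc25a, Cdc6 and Aurka, though a lone library is assumed there to vary like the other group. A minimum of 5 FPKM removed Ccne2 from the test. Of the genes that had not passed, 3 changed sign. With 1 library left out Ccnd1 ranged from -0.232 to 0.533, Cdk4 from -0.165 to 0.024 and Ccnb2 from -0.04 to 0.029, and Ccnb2 was at 0.025 with upper quartile scaling. Why the counts moved was not tested. The siRNA medians moved by less than the spread between vehicle clones under every setting tried, but with upper quartile scaling the double siRNA median of the 40 genes was 0.005 in place of 0.051, and the counts of vehicle against wild type kept within 1.5 times. Depth in fragments is not known, so small differences of low genes such as Ccne2 and Cdc25b cannot be given a counting error.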
